A study of Mus musculus with 28 samples.

Results

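Carboxylesterases and epoxide hydrolases were followed as 10 genes of mouse liver: 8 carboxylesterases (Ces1c, Ces1d, Ces1e, Ces1f, Ces1g, Ces2a, Ces2c and Ces3a) and both principal epoxide hydrolases (Ephx1 and Ephx2). They were chosen by name, as all array probes whose RefSeq accession maps to these genes, out of 20660 named genes on the array. The 10 genes had 13 probes, 3 for Ces2c, 2 for Ephx1 and 1 for each of the others, with 1 spot per probe and array. None of these spots was flagged as an outlier or as saturated on any array. Where a gene had several probes, the brightest over the one-colour arrays stood for the gene, and the others are given beside it.

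The RNA came from whole livers of 6 male B6C3F1 mice with a labelled age of 42 days, stored in paraffin blocks after formalin fixation for 16 years. In the phenobarbital group 3 mice drank water with 0.05% phenobarbital, a barbiturate that activates the nuclear receptor CAR in hepatocytes, for about 4 weeks, and the 3 control mice drank water alone. The cDNA of the same 6 mice was hybridized in 4 sets of 1 slide each. The one-colour sets (6 arrays per set) and the two-colour sets (8 per set) were each run with a cDNA input of 1X and with one of 1.5X. The mouse was the replicate (n = 3 per group), so the number of mice limits the precision, and fewer cells of a type and less RNA per cell cannot be told apart in whole liver.

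Carboxylesterases are serine hydrolases of the endoplasmic reticulum that split esters, amides and carbamates, drugs and acylglycerols among them, and the liver is a main site of their expression. In the mouse the family has grown by gene duplication: in the reference order of genes (assembly GRCm38.p6, used for order only) Ces1c, Ces1d, Ces1e, Ces1f and Ces1g are direct neighbours on chromosome 8, and Ces2a, Ces2c and Ces3a lie in another cluster on the same chromosome, with other Ces2 genes between them. Epoxide hydrolases add water to epoxides. Ephx1 encodes the microsomal enzyme, which opens epoxides that cytochromes P450 make from drugs and aromatic hydrocarbons, and Ephx2 the soluble enzyme, which acts on epoxides of fatty acids. Probe specificity between such closely related copies was not tested.

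The genes that lay highest above the controls were Ces2a, Ces2c and Ephx1, and their promoters are shown for that reason. A shared difference between the groups does not show that these 3 genes vary together among mice of the same group. Their correlations within the groups are given below. The sequences are those of RefSeq on GRCm38.p6, 250 bases before and 50 after the start of the gene, and the table held 6 of the 10 genes. In Ces2a and Ces2c the capitals mark runs of at least 8 bases that are identical in a global alignment of both, and in Ephx1 they mark GGGCGG, the core of a GC box.
Ces2a (chr8:104733753-104734052, plus strand): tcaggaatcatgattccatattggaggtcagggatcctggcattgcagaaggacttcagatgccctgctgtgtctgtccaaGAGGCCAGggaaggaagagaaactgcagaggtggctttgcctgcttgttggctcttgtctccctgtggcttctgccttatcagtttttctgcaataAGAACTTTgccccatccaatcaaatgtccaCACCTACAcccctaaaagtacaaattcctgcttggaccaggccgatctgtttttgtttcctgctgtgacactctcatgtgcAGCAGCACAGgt
Ces2c (chr8:104846818-104847117, plus strand): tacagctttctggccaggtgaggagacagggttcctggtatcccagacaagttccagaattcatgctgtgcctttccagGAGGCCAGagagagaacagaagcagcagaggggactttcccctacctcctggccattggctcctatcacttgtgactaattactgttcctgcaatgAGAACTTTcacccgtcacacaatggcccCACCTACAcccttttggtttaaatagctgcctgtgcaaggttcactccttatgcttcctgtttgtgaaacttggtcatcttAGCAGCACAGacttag
Ephx1 (chr1:181017520-181017819, minus strand): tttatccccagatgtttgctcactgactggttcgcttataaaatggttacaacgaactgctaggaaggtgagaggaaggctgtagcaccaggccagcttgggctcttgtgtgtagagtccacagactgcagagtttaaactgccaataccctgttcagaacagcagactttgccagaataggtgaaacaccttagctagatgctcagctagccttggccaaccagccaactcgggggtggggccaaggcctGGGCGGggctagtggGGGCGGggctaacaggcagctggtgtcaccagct

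The promoters of Ces2a and Ces2c were identical at 66.9% of 311 aligned positions, with 4 identical runs of at least 8 bases. The other 14 pairs among the 6 promoters in the table had identities of 45.1% to 55.8%. AGGTCA and AGTTCA, half-sites that nuclear receptors such as CAR can bind, were searched on both strands, alone and as direct repeats with 4 bases between. One AGGTCA lay at bases -226 to -221 of Ces2a, where it follows an ATTGG (the CCAAT box on the other strand), and none of these letters was found in the windows of Ces2c and Ephx1. Only exact matches within these windows were counted. Sites farther from the start or with other letters were not searched, and binding of CAR was not tested. Over 32851 promoters of the same length, 27.7% held at least 1 of both half-sites and 0.0274% a direct repeat. GGGCGG was found in Ephx1 alone among the 6, at bases 2 to 7 and 17 to 22 after the start, and in 35.7% of all promoters. CCAAT was found in 5 of the 6 and in 37.4% of all.

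Detection and exposure were checked before the genes were compared. Well above background, Feature Extraction's call against the local background, held for 44.2% to 51.9% of all probes on the one-colour 1X arrays and for 28.1% to 38.5% at 1.5X. In the two-colour sets it held for 21.9% to 31.5% in Cy3 and 14.8% to 23.1% in Cy5 at 1X, and for 34.4% to 42.8% and 2.97% to 7.41% at 1.5X. The 10 genes were all well above background on each of the 12 one-colour arrays. Their lowest processed signal at 1X was 63.1 for Ces1e and 139 for Ces1f, while the other 8 genes had at least 636. At 1.5X it was 115 for Ces1e and 242 for Ces1f, and at least 971 for the others. The negative control spots had medians of 54.0 to 82.8 at 1X and 216 to 277 at 1.5X. Those medians are raw signals without background subtraction, so they are not on the scale of the processed signals. Cyp2b10, the classical CAR target, was not well above background on any control array of the one-colour sets or of two-colour 1X, so it was tested there through the exposed group alone. In the mean of both one-colour inputs it was at least 23.6-fold higher in the phenobarbital group, a bound from the lowest signals called well above background. The limma fit there used the measured control signals instead (adjusted p = 0.00013). Por rose by a log2 of 2.39 (adjusted p = 0.00204), Gstm3 by 2.97 (adjusted p = 0.00124) and Cyp3a11 by 1.02 (adjusted p = 0.0475) in the same limma fit, while Cyp2c29 had 1.33 (adjusted p = 0.0563). In two-colour 1X all 5 passed (limma, adjusted p of at most 0.0144), and in two-colour 1.5X none did, with Gstm3 at 1.32 (adjusted p = 0.943), Cyp3a11 at 0.72 and Por at 0.60, and with Cyp2b10 (0.29) and Cyp2c29 (0.23) overlapping and too dim to test. The 8 hepatocyte markers were well above background on all one-colour arrays. By limma none of them passed in the one-colour mean and 2 passed in two-colour 1X (median log2 change -0.18 and -0.28). Of the 10 pancreas markers 9 were well above background on all one-colour arrays. The summed linear level of the 10 pancreas markers, relative to each array's scaling level, was 153, 499 and 584 in control mice 1 to 3 and 101, 199 and 592 in phenobarbital mice 1 to 3, so the groups overlapped. The summed level of the macrophage markers, 6 of 8 of them well above background on all one-colour arrays, was 3.03 to 3.82 in control and 3.88 to 5.49 in phenobarbital mice, without overlap. Mpeg1 was the 1 that passed by limma (0.95). The others did not share a direction: Marco had -0.71 and Vsig4 -0.24, while Adgre1, Clec4f, Cd5l, C1qa and C1qb had 0.03 to 0.40. The neutrophil sums did not overlap either, at 0.0621 to 0.102 and 0.135 to 0.598, with 0 of 4 markers above background on all arrays. The part of these cell types in the results was not tested.

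One-colour values below are log2 processed signals minus the array's 75th percentile over well-detected probes, averaged over both inputs of a mouse. Two-colour values are log2 intensities averaged over both dyes of a mouse. Each two-colour array held a control and a phenobarbital mouse together, and control mouse 3 and phenobarbital mouse 3 shared all of theirs, so the groups' values there are not free of each other; the array was not a block in the fit. A gene counted as changed at a limma p-value below 0.05 after Benjamini-Hochberg adjustment over all genes tested. In the mean of both one-colour inputs 0.749% of 12809 genes passed, and of the 10 genes 1 passed, Ces2a, which was higher. At 1X alone 0.161% of 18644 genes passed and at 1.5X 0.237% of 13083, and none of the 10 passed in either by limma, although 4 had an unadjusted p below 0.05 in each, as did 8.58% of all genes at 1X and 14.9% at 1.5X. In two-colour 1X 6.27% of 8259 genes passed, and of the 10 genes 3 did, Ces2a, Ces2c and Ephx1, all higher. In two-colour 1.5X 0% of 1663 genes passed (limma; 29 had an unadjusted p below 0.05). There 5 of the 10 genes were bright enough to test, none passed, and 1 (Ces2a) had an unadjusted p below 0.05. The median log2 change over the 10 genes was 0.20 in the one-colour mean and 0.11 in two-colour 1X, against -0.02 and -0.01 over all genes tested. Ces1e and Ces1f entered the two-colour 1X median through the control group alone. With both groups required to be well above background, that median was 0.27 over the 8 genes left, against 0.02 over all genes. The one-colour median rested on control mouse 3: without that mouse it was 0.01, against -0.04 over all genes, and without control mouse 2 it was 0.34.

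**Figure D1:**
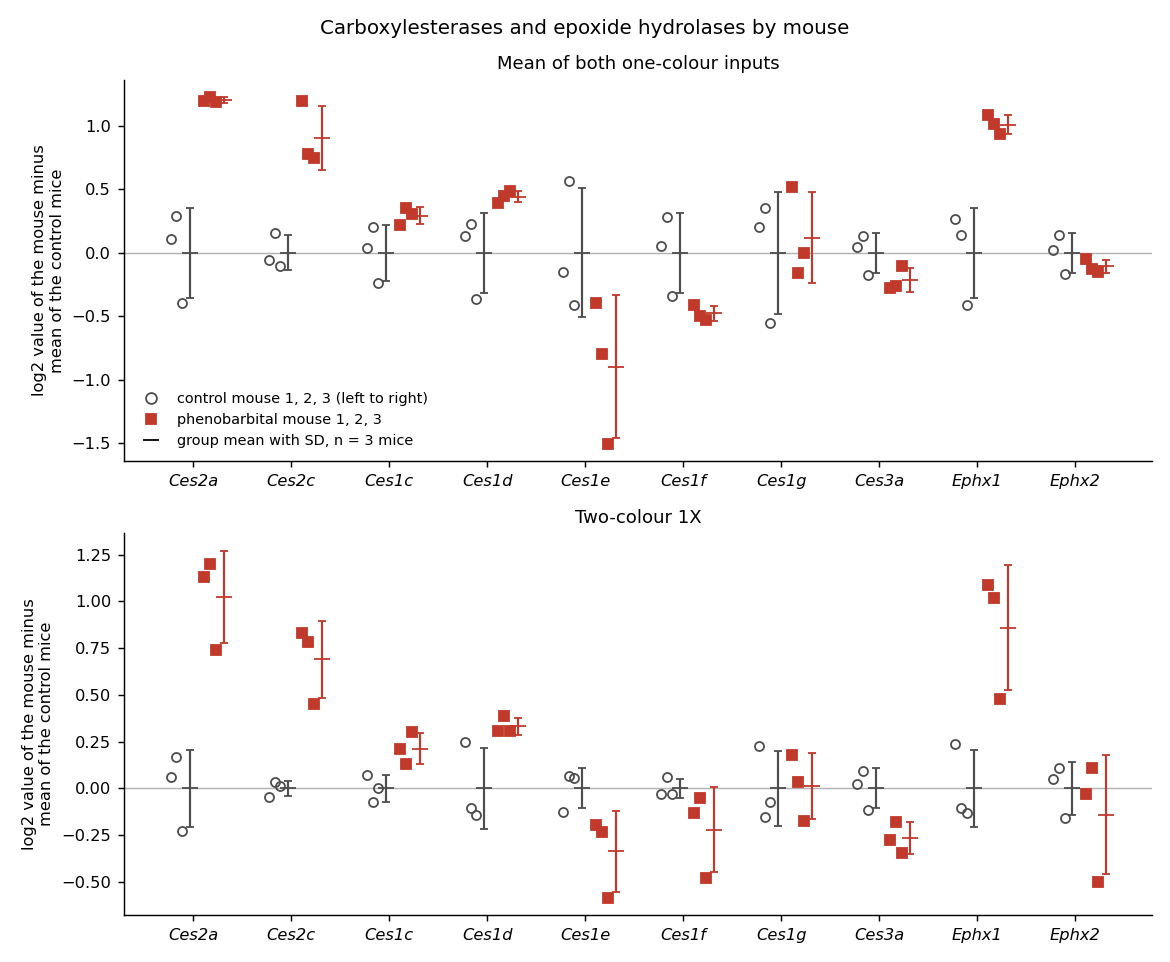
Value of each mouse minus the mean of the 3 control mice (log2), for the mean of both one-colour inputs (top) and two-colour 1X (bottom). Open circles are control mice, filled squares phenobarbital mice, and bars the group mean with its SD. Ces2a, Ces2c and Ephx1 lie above the controls without overlap in both panels, Ces1f lies below them in both, and Ces1g overlaps. Ces1c and Ces1d also lie above without overlap in both panels, by gaps of 0.02 and 0.06 for Ces1c and 0.17 and 0.06 for Ces1d.

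Among the class 2 carboxylesterases, whose human relative CES2 is known for hydrolysing prodrugs such as irinotecan, Ces2a and Ces2c had higher values in every exposed mouse than in any control mouse in both the one-colour mean and two-colour 1X. This did not hold for all class 2 genes on the array: Ces2e had a log2 change of -0.15 (SE 0.17, limma, adjusted p = 0.744) and Ces2b one of 0.69 (SE 0.42, adjusted p = 0.540) in the one-colour mean, both with overlap. Ces2g lay higher without overlap there (0.89, SE 0.19, limma, adjusted p = 0.0965). It was well above background on 5 of 6 control and 6 of 6 phenobarbital arrays, so it was tested through the exposed group alone. In two-colour 1X Ces2g was too dim to test (0 of 6 control and 2 of 6 phenobarbital channels, log2 change 0.11). Ces2a had one-colour values of 2.88, 3.06 and 2.38 in control mice 1 to 3 and of 3.97, 4.00 and 3.96 in phenobarbital mice 1 to 3. The groups did not overlap, and the exposed mice differed from one another by 0.04, against 0.68 among the controls, where mouse 3 was low. At the single inputs the exposed mice ranged over 0.12 at 1X and 0.17 at 1.5X, and the controls over 0.65 and 0.70. In two-colour 1X the ranges were 0.46 in exposed and 0.40 in control mice. Ces2a rose by a log2 of 1.21 (SE 0.20, 95% confidence interval 0.75 to 1.66, limma, adjusted p = 0.0488), a 2.31-fold difference, and ranked 147 of 12809 genes by its change. This call lies at the threshold. It was lost without any 1 of the 6 mice (limma, adjusted p of 0.074 to 0.171, log2 change 1.01 to 1.35), without scaling between arrays (0.99, adjusted p = 0.201) and without the filter on dim probes (adjusted p = 0.157).

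In two-colour 1X the Ces2a values were 10.96, 11.07 and 10.67 in control mice 1 to 3 and 12.03, 12.10 and 11.64 in phenobarbital mice 1 to 3. Both groups were again apart, with mouse 3 lowest in each. Ces2a rose there by a log2 of 1.02 (SE 0.15, limma, adjusted p = 0.00664), which is 2.03-fold, and passed whichever mouse was left out. Arrays 4 and 8 of this set were left out because their description and channel labels give opposite dyes. With both added under the dyes of the description 0 genes passed and Ces2a had 0.68 (limma, adjusted p = 0.3). Under the dyes of the channel labels Ces2a, Ces2c and Ephx1 passed. In the deposited value table the ratio's sign is turned on array 8, as where Cy5 held a control mouse, and kept on array 4. This goes with the channel labels. At the single one-colour inputs Ces2a had 1.35 (SE 0.22, adjusted p = 0.101) at 1X and 1.06 (SE 0.21, adjusted p = 0.11) at 1.5X, without passing (limma). In two-colour 1.5X the groups did not overlap either, with a log2 change of 0.63 (SE 0.25, limma, adjusted p = 0.999). Ces2a was thus apart in each of the 4 sets, which share the same 6 mice and are not independent.

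Ces2c lay lower in every control mouse than in any exposed mouse as well. Its one-colour values were 0.73, 0.94 and 0.68 in control mice 1 to 3 and 1.98, 1.56 and 1.53 in phenobarbital mice 1 to 3. The log2 change was 0.91 (SE 0.18, 95% confidence interval 0.50 to 1.32), a 1.88-fold difference that did not pass (limma, adjusted p = 0.0763). In two-colour 1X the values were 8.73, 8.81 and 8.79 in control mice and 9.61, 9.56 and 9.23 in phenobarbital mice. The controls lay within 0.08 of one another there, and Ces2c rose by a log2 of 0.68 (SE 0.11, limma, adjusted p = 0.00966), a 1.61-fold difference that passed whichever mouse was left out (adjusted p of at most 0.0457). On some arrays the mouse number in the description is not that of the source name; taking the latter, Ces2c (adjusted p = 0.0747) and Ephx1 (adjusted p = 0.119) no longer passed by limma and Ces2a did. With the Cy3 channel alone, a setting chosen after seeing the data, Ces2c (0.74, adjusted p = 0.0514) and Ephx1 (0.82, adjusted p = 0.0798) did not pass by limma either. At 1.5X the two-colour values did not overlap (log2 change 0.31), but only 5 of 8 control and 7 of 8 phenobarbital channels were well above background, so the gene was not tested.

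The 3 probes of Ces2c all had higher values in the exposed mice. In the one-colour mean their log2 changes were 0.91, 0.91 and 0.90 (probes A_55_P2005213, A_55_P2124712 and A_52_P318361), and in two-colour 1X 0.68, 0.85 and 0.76. With each probe tested on its own, none passed in the one-colour mean (limma, adjusted p of 0.0773 to 0.191) and all 3 passed in two-colour 1X (adjusted p of at most 0.00954). At one-colour 1X the probe A_52_P318361 overlapped between the groups, because phenobarbital mouse 2 (0.00) lay below control mouse 2 (0.06).

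**Figure D2:**
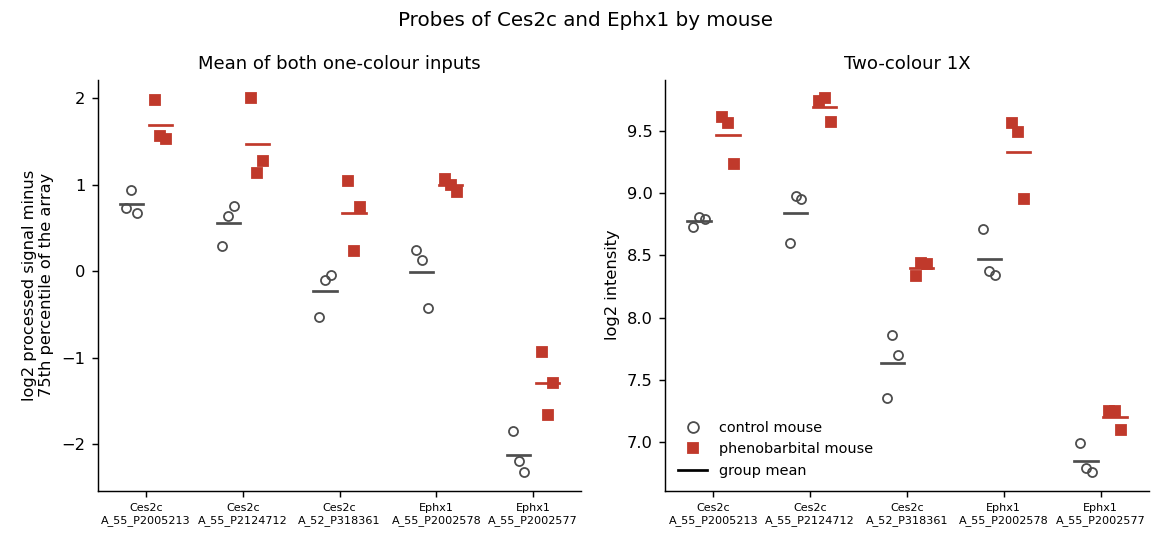
Values of each probe of Ces2c and Ephx1 by mouse, as log2 processed signal minus the 75th percentile of the array (left, mean of both one-colour inputs) and as log2 intensity (right, two-colour 1X), with lines at the group means. Each of the 5 probes separates the 3 phenobarbital mice from the 3 control mice in both panels, and the dimmer Ephx1 probe A_55_P2002577 has a smaller step (0.35) than A_55_P2002578 (0.86) in two-colour 1X.

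Of the epoxide hydrolases only Ephx1 passed the test in any set. Its one-colour values were 0.25, 0.13 and -0.42 in control mice 1 to 3 and 1.07, 1.00 and 0.92 in phenobarbital mice 1 to 3. The groups did not overlap, and control mouse 3 was again the lowest. The log2 change of 1.01 (SE 0.20, 95% confidence interval 0.55 to 1.48), a 2.02-fold difference, did not pass (limma, adjusted p = 0.0800). At the single inputs Ephx1 had 0.94 (SE 0.25, limma, adjusted p = 0.292) at 1X and 1.08 (SE 0.29, adjusted p = 0.191) at 1.5X, both without overlap. The SD of the exposed mice was 0.33 at 1X and 0.37 at 1.5X, against 0.07 in the mean of both. In two-colour 1X the values were 8.71, 8.37 and 8.34 in control mice and 9.56, 9.49 and 8.95 in phenobarbital mice. Phenobarbital mouse 3 lay closest to the controls, 0.24 above control mouse 1. Ephx1 rose by a log2 of 0.86 (SE 0.17, limma, adjusted p = 0.0266), a call that leaving out control mouse 2, control mouse 3, phenobarbital mouse 1 or phenobarbital mouse 2 ended (adjusted p of 0.0881 to 0.0988).

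The other Ephx1 probe, A_55_P2002577, was also higher without overlap in the one-colour mean (log2 change 0.83, SE 0.22, limma, adjusted p = 0.177) and in two-colour 1X (0.35, SE 0.09, adjusted p = 0.0561), where 4 of 6 phenobarbital channels were well above background. Ephx1 had no such separation in two-colour 1.5X, with a log2 change of 0.03 between control mice at 7.92, 8.05 and 7.63 and phenobarbital mice at 7.90, 8.03 and 7.77. In that set it was well above background in all 8 Cy3 channels but in 1 of 8 Cy5 channels. Its change was 0.27 in Cy3 and -0.20 in Cy5.

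Ephx2 did not differ by more than its spread. The one-colour values were 3.44, 3.56 and 3.25 in control mice and 3.37, 3.29 and 3.27 in phenobarbital mice, which overlap. The log2 change was -0.11 (SE 0.14, 95% confidence interval -0.45 to 0.23, limma, adjusted p = 0.786), and in two-colour 1X it was -0.14 (SE 0.16, 95% confidence interval -0.50 to 0.22, adjusted p = 0.628). These intervals leave out a change of the size fitted for Ephx1 in the same sets; the difference between both genes was not tested.

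The class 1 carboxylesterases, relatives of the human CES1 of liver, split into members that lay higher and members that lay lower, and none passed in any set by limma. Ces1d, known as triacylglycerol hydrolase for its part in lipid turnover and very low density lipoprotein assembly, had one-colour values of 2.98, 3.07 and 2.48 in control mice and 3.24, 3.29 and 3.33 in phenobarbital mice. The groups did not overlap, and the gap between them was 0.17. Its log2 change was 0.44 (SE 0.18, limma, adjusted p = 0.358), and in two-colour 1X it was 0.33 (SE 0.11, adjusted p = 0.12). Ces1c, a secreted esterase of mouse plasma, had 2.56, 2.72 and 2.28 in control mice and 2.74, 2.87 and 2.83 in phenobarbital mice. These were apart by 0.02 only, with a log2 change of 0.29 (SE 0.16, adjusted p = 0.488), and 0.21 (SE 0.08, adjusted p = 0.143) in two-colour 1X.

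Ces1e and Ces1f had lower means in the exposed mice. Ces1e had one-colour values of -1.64, -0.92 and -1.90 in control mice and -1.88, -2.28 and -2.99 in phenobarbital mice. The groups overlapped by 0.02, and the spread was the widest of the 10 genes (SD 0.51 and 0.56). The log2 change was -0.90 (SE 0.35, 95% confidence interval -1.70 to -0.09, limma, adjusted p = 0.325). In two-colour 1X the Ces1e values of 7.09, 7.28 and 7.27 in control mice and 7.02, 6.98 and 6.63 in phenobarbital mice did not overlap, with a log2 change of -0.34 (SE 0.12, limma, adjusted p = 0.127) and 4 of 6 phenobarbital channels well above background.

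Ces1f had one-colour values of -1.30, -1.07 and -1.69 in control mice and -1.76, -1.85 and -1.88 in phenobarbital mice. The groups were apart by 0.07, with a log2 change of -0.48 (SE 0.19, limma, adjusted p = 0.330), and in two-colour 1X the change was -0.22 (SE 0.12, adjusted p = 0.278), with a gap of 0.02 between the groups and 5 of 6 phenobarbital channels above background. Without phenobarbital mouse 3 (6.85, against 7.20 and 7.28 in the others) that change was -0.09, and the change of Ces1e in that set was -0.22. Phenobarbital mouse 3 was the lowest exposed mouse there for 8 of the 10 genes and for 45.2% of all genes tested. Ces1g, an esterase that hydrolyses acylglycerols and cholesteryl esters in hepatocytes, had 0.93, 1.08 and 0.18 in control mice and 1.25, 0.57 and 0.73 in phenobarbital mice. These overlapped, with a log2 change of 0.12 (SE 0.28, adjusted p = 0.895) and 0.01 (SE 0.13, adjusted p = 0.962) in two-colour 1X. Its sign was not the same in all sets (-0.02 at one-colour 1.5X).

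Ces3a, another triacylglycerol hydrolase of liver, had processed signals of 26500 to 59300 on the one-colour arrays. Its one-colour values were 5.66, 5.75 and 5.44 in control mice and 5.34, 5.36 and 5.51 in phenobarbital mice, and only phenobarbital mouse 3 reached into the control range. The log2 change was -0.21 (SE 0.15, limma, adjusted p = 0.591). In two-colour 1X the values of 13.74, 13.81 and 13.60 in control mice and 13.44, 13.54 and 13.37 in phenobarbital mice did not overlap, with a log2 change of -0.27 (SE 0.09, 95% confidence interval -0.47 to -0.07, adjusted p = 0.107). Changes from -0.25 to -0.21 were found in the other 3 sets, which share the mice, and none passed there either.

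**Figure D3:**
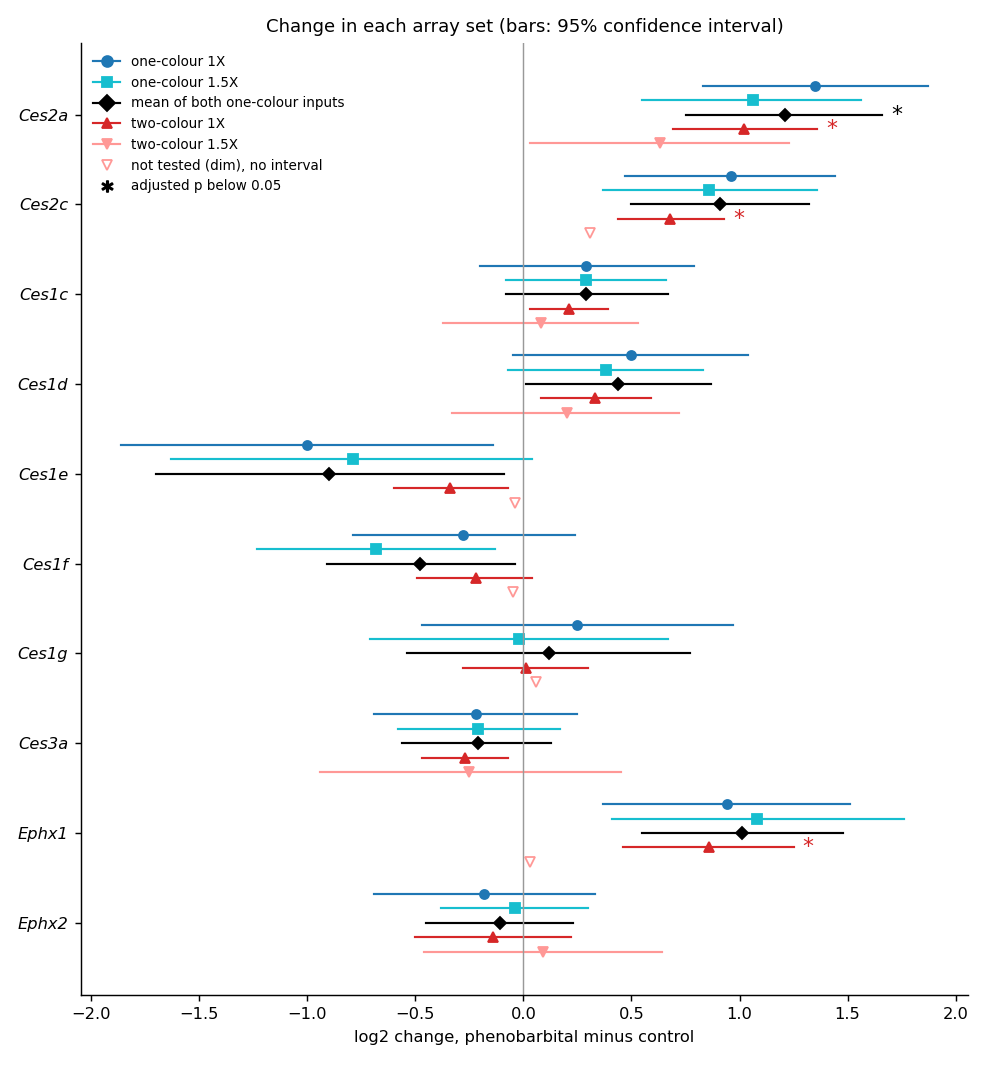
Log2 change of each gene, phenobarbital minus control, in the 4 array sets and in the mean of both one-colour inputs, with 95% confidence intervals from limma. Hollow triangles are genes too dim to test in two-colour 1.5X, and asterisks mark an adjusted p below 0.05: Ces2a in the one-colour mean, and Ces2a, Ces2c and Ephx1 in two-colour 1X.

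Counted over the 10 genes, 5 lay higher and 1 lower without overlap between the groups in the one-colour mean, 4 and 1 at one-colour 1X, 5 and 1 at one-colour 1.5X, and 5 and 3 in two-colour 1X. Of the 3 lower genes in two-colour 1X, Ces1e and Ces1f met the brightness filter in the control group alone. The share of all genes tested whose groups did not overlap in either direction was 19.0%, 14%, 20.8% and 33.0% in these comparisons, beside the 0.749%, 0.161%, 0.237% and 6.27% that passed. In two-colour 1.5X 1 of the 5 genes tested lay higher without overlap, against 3.79% of all genes.

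Control mouse 3 had the lowest value of the 3 control mice for all 10 genes in the one-colour mean. This held at 1X for 10 of 10 and at 1.5X for 9 of 10 (Ces2c was lowest in control mouse 1), and over all genes tested control mouse 3 was the lowest in 39.4% in the one-colour mean. In two-colour 1X it was lowest for 5 of the 10 genes and 31.2% of all. This liver also had the highest pancreas sum of the controls (584) and the lowest sum of the 8 hepatocyte markers (264, against 311 and 329), while its share of probes above background was the highest of the controls at 1X (51.9%) and the lowest of them at 1.5X (32%). The part of these in the genes' values was not tested. Without control mouse 3 the one-colour changes were 1.01 for Ces2a, 0.26 for Ces1d and 0.17 for Ces1c.

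Whether cDNA input or array format changed the response was tested on differences within mice. Between the one-colour inputs 0% of 12809 genes passed (limma; 723 had an unadjusted p below 0.05), and none of the 10 genes did, by limma or at an unadjusted p below 0.05. The change of Ces2a at 1.5X minus that at 1X was -0.30 (95% confidence interval -0.71 to 0.12), that of Ces2c -0.09 (-0.58 to 0.39) and that of Ephx1 0.14 (-0.65 to 0.92). Between formats at 1X 0.0242% of 8259 genes passed, and again none of the 10 by limma or at an unadjusted p below 0.05. Two-colour minus one-colour, the difference was -0.33 for Ces2a (95% confidence interval -0.76 to 0.10), -0.27 for Ces2c (-0.72 to 0.17), -0.09 for Ephx1 (-0.73 to 0.56) and 0.66 for Ces1e (-0.01 to 1.34). Intervals of this width do not show that the sets responded alike, and input or format, slide and scan session cannot be told apart here. The formats also differed in background correction and scaling, which cannot be told apart from format either. Over the alternatives run, the change of Ces1e was -1.04 to -0.22 in two-colour 1X and -1.31 to -0.68 at one-colour 1X.

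At 1X, Ces2a changed by 1.06 in Cy3 and 0.98 in Cy5, Ces2c by 0.74 and 0.63, and Ephx1 by 0.82 and 0.89. At 1.5X the Cy3 values of Ces2a (0.84) and Ces2c (0.48) lay above the Cy5 values (0.42 and 0.15), and 4 of 8 Cy5 channels were well above background for Ces2c. Ces1e and Ces1f were well above background in all 8 Cy3 and in none of the Cy5 channels of that set. With the Cy3 channel alone at 1.5X, a setting chosen after seeing the data, Ces2a had 0.84 (limma, adjusted p = 0.269).

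**Figure D4:**
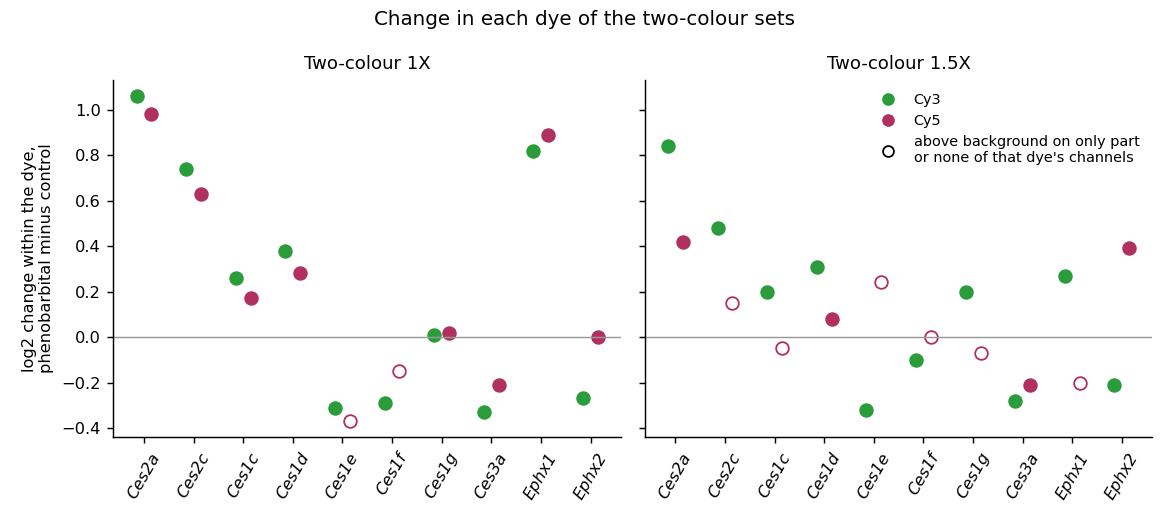
Log2 change, phenobarbital minus control, within the Cy3 (green) and the Cy5 (dark red) channels of the two-colour sets at 1X (left) and 1.5X (right). Open circles mark genes that were well above background on only part or none of a dye's channels; at 1X both dyes lie close together for Ces2a, Ces2c and Ephx1, and at 1.5X 6 genes have open Cy5 circles.

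The genes were also set against one another over the 12 one-colour arrays, each input centred, as a description: the arrays are 6 mice measured at both inputs, and the exposure itself enters each correlation. Ces2a correlated with Ces2c (Pearson r = 0.92) and with Ephx1 (0.92). With each exposure group centred as well, the same pairs had r = 0.37 and 0.74. Ces2a also correlated with Ces1d (0.89) and Ces1c (0.86), and with both at 0.84 within the groups. Ces1c and Ces1d, direct neighbours on chromosome 8, had r = 0.97 and, within the groups, 0.94. Ces1f and Ces2a had r = -0.45 across the groups and 0.78 within them, where control mouse 3 was low for both. Among 7283 named genes well above background on all 12 arrays, the gene most like Ces2a was Abcc2, the canalicular efflux pump for conjugates (r = 0.985), and that most like Ephx1 was Acsm1, a medium-chain acyl-CoA synthetase (0.975). For Ces2c it was 4931406C07Rik (0.973), for Ces1e the stearoyl-CoA desaturase Scd1 (0.959) and for Ces1g the fatty acid desaturase Fads1 (0.959). Ces1f (Il3ra, 0.930), Ces3a (Syngr2, 0.942) and Ephx2 (Rab1b, 0.930) had other genes in front. The most similar of the 10 genes had rank 46 for Ces2a (Ephx1), 28 for Ces2c (Ces2a) and 10 for Ephx1 (Ces2a) among the 7283. Ces1c and Ces1d were each the gene most like the other.

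**Figure D5:**
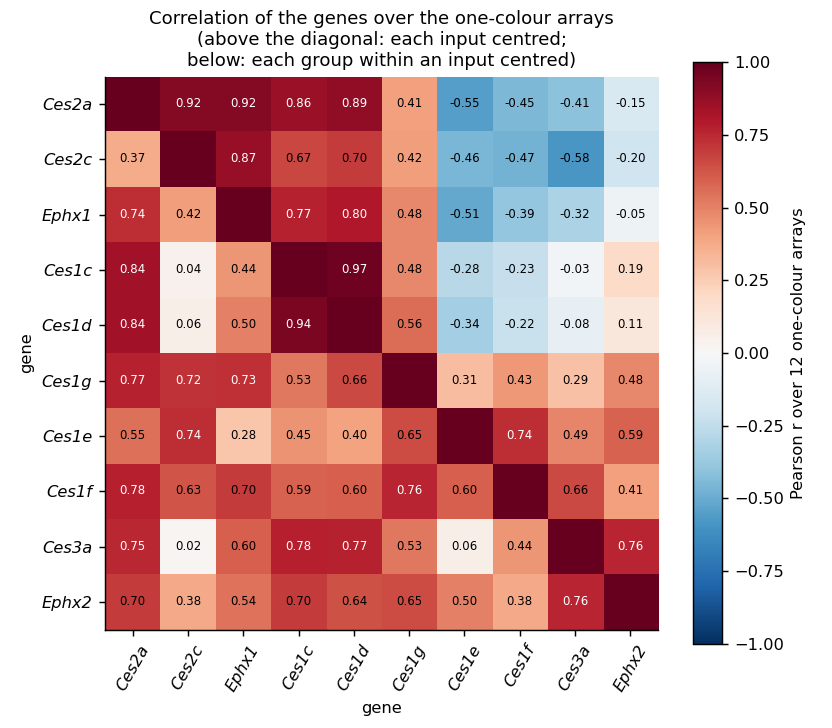
Pearson correlation between the 10 genes over the 12 one-colour arrays, with each input centred (above the diagonal) and with each exposure group within an input centred (below it). Pairs among Ces2a, Ces2c and Ephx1 have 0.87 to 0.92 above the diagonal and 0.37 to 0.74 below it, Ces2a has 0.86 with Ces1c and 0.89 with Ces1d above it, and the 18 negative pairs above the diagonal are all positive below it.

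Of 31 other hydrolases, 29 had a named probe and 22 were tested in the one-colour mean, where none passed by limma and 4 had an unadjusted p below 0.05, against 13.5% of all genes (median log2 change -0.09, range -1.0 to 0.89). In two-colour 1X 16 were tested, 8 had an unadjusted p below 0.05, against 24.7% of all genes, and Ces3b, the neighbour of Ces3a, was the 1 that passed. Ces3b had a group mean of 8.27 ± 0.21 (SD, n = 3) in control mice and 7.55 ± 0.26 (SD, n = 3) in phenobarbital mice there, and fell by 0.72 on the log2 scale (SE 0.15, limma, adjusted p = 0.031). In that set 6 of 6 control but 5 of 6 phenobarbital channels were well above background, so Ces3b was tested through the control group alone. In the one-colour mean, with 6 of 6 arrays of each group well above background, Ces3b had -1.0 (SE 0.26, limma, adjusted p = 0.158), also without overlap. Aadac, an arylacetamide deacetylase of the endoplasmic reticulum, had -0.91 (SE 0.35, limma, adjusted p = 0.329) and Ces2g, in the cluster of Ces2a, 0.89 (SE 0.19, adjusted p = 0.0965, no overlap), the next in size of those tested. Ces2g was tested through the exposed group alone, with 5 of 6 control arrays well above background. Nceh1, a cholesteryl ester hydrolase, had 1.31 but was above background on 1 of 6 control and 4 of 6 phenobarbital arrays and was not tested.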

How the data were processed

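Total liver RNA of 6 mice was measured on Agilent mouse arrays. Per the file headers, Feature Extraction 11.0.1.1 made the deposited intensity values: processed signals (background-subtracted), median spot and background signals, and 0 or 1 spot flags. The log10 ratios of the two-colour arrays were deposited by the authors, per the file headers as Cy5 over Cy3; they were used only for the 2 arrays left out. The deposited value table equals the processed signals of the one-colour arrays and the log10 ratios. The sign of the ratio is turned there on each assigned array with a control mouse in Cy5 and on array 8 of two-colour 1X. It is kept on array 4 of that set and on arrays with a phenobarbital mouse in Cy5.

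For one-colour values, each array's 75th percentile, over probes that were well above background throughout the set, was subtracted from its log2 processed signals. Two-colour median signals were corrected with normexp (offset 50), loess (span 0.3) and Aquantile in limma 3.58.1 (R 4.3.3), and averaged over dyes and repeat arrays of a mouse. Spots flagged as outliers were left out. Genes were named through RefSeq accessions, with 1 probe per gene. Genes well above background in all channels of at least 1 exposure group were tested with lmFit and eBayes, checked on simulated data, and p-values were adjusted by Benjamini-Hochberg over all genes. Labels do not say more of the mice than that they are separate animals. The members and lists were chosen with earlier results of these data known. Named were the 10 genes, the exposure genes, the most correlated gene of each member, and those of the 31 other hydrolases that passed or had the 3 largest one-colour changes of those tested. Cell type markers and, of the hydrolases, Ces2b, Ces2e and Nceh1 were named beyond that rule. Mouse numbers were not taken as pairs in the reported fits. Alternatives covered correction, scaling, filters, probes, slide row, mouse labels, a mouse-number block and leaving out each mouse; the Cy3 channel alone was chosen after seeing the data. Figures were drawn with matplotlib 3.10.9.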

Additional observations from a re-analysis of the deposited data

How the results depend on the processing

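The number of genes that passed by limma moved with the processing in every set. At one-colour 1X (30 in the reported setting) it was 18 without scaling between arrays, 11 with the slide row as a block, 7 without the filter on dim probes and 5 to 16 without 1 mouse. At one-colour 1.5X (31) it was 157 with normexp and quantile normalization, 15 with the slide row, 7 without the filter, 84 with both groups above background and 6 to 144 without 1 mouse (144 without phenobarbital mouse 1). In the one-colour mean (96) it was 146 with normexp and quantile normalization, 62 without scaling, 28 without the filter and 10 to 101 without 1 mouse. In two-colour 1X (518) it was 100 with the mouse numbers of the source names, 138 with Cy3 alone and 214 to 658 without 1 mouse. With arrays 4 and 8 added it was 0 under the description's dyes and 492 under those of the channel labels. In two-colour 1.5X (0) it was 15 with Cy3 alone, and for the difference between formats (2) it was 1 without the filter and 0 to 2 without 1 mouse. With each group centred, mice of the same number correlated at -0.28 to 0.38 over the sets. The third mice of both groups were positive in every set. They had 0.38 and 0.33 at two-colour 1X and 1.5X, where they share their arrays. At one-colour 1X and 1.5X, where they do not, they had 0.27 and 0.18. The first mice had 0.03 to 0.28 and the second -0.28 to 0.03. With the mouse number as a replicate block 3, 4 and 37 genes passed in the one-colour 1X, 1.5X and mean fits. In two-colour 1X 694 passed and for the difference between formats 1, and Ces2a did not pass in the one-colour mean (limma, adjusted p = 0.0911). Of the 10 genes, 0, 1 and 2 passed with normexp at one-colour 1X, 1.5X and in the mean; the second was Ephx1 (0.94, adjusted p = 0.0460). In two-colour 1X Ces1d passed without control mouse 1 (0.46, adjusted p = 0.0235). Ces2a, Ces2c and Ephx1 stayed higher under all alternatives run for the one-colour sets and two-colour 1X. The sign turned only for changes that did not pass. At one-colour 1X these were Ces1c (0.00) and Ces1g (-0.05) without scaling, and Ces1g (-0.02 to 0.45) without 1 mouse. For Ces1g at one-colour 1.5X they were normexp (0.02), the percentile over all probes (0.01) and leaving out 1 mouse (-0.30 to 0.13), and in the mean no scaling (-0.10) and leaving out 1 mouse (-0.16 to 0.29). In two-colour 1X they were Ces1g (0.00 with the description's dyes, -0.07 to 0.13 without 1 mouse) and Ephx2 (-0.27 to 0.04). In two-colour 1.5X they were Ephx2 (-0.21 with Cy3 alone, -0.03 to 0.26 without 1 mouse), Ces3a (-0.42 to 0.00) and Ces1c (-0.05 to 0.15). Between inputs they were Ephx1 (-0.24 to 0.43) and Ces2c (-0.22 to 0.02), and between formats Ephx1 (-0.36 to 0.21). The cause of these changes was not tested. No scaling moved the median of all genes to -0.28, -0.16 and -0.23 in the one-colour 1X, 1.5X and mean fits. Signal over background limits Ces1e, Ces1f and the Cy5 channels at 1.5X.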

Other observations

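The description and the channel labels of arrays 4 and 8 of the two-colour 1X set give opposite dyes. Both stayed out of the comparisons and no direction is drawn from them. The deposited value table has the sign of the ratio turned on array 8 and not on array 4, which goes with the channel labels. The deposited log10 ratio of Cy5 over Cy3 on array 4 was 0.299 for Ces2a, 0.264 for Ces2c, 0.394 for Ephx1, -0.518 for Ces1e and -0.123 for Ces3a. On array 8 it was -0.394 for Ces2a, -0.312 for Ces2c, -0.301 for Ephx1, 0.152 for Ces1e and 0.0195 for Ces3a. For Cyp2b10 the ratios were 1.11 on array 4 and -0.831 on array 8.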
